A study of Rattus norvegicus with 6 samples.

Results

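Perineuronal nets and the matrix around nodes of Ranvier were followed through 9 genes, Acan, Bcan, Ncan, Vcan, Hapln1, Hapln2, Hapln4, Tnr and Tnc, taken by gene symbol out of 30076 symbols in the deposited tables. The 3 manipulated (COM) rats, replicates 4, 5 and 6, received cranial osteopathic manipulation, in which a Doctor of Osteopathy handles the head, over 7 days while anaesthetised with isoflurane at 1.5 to 3%. The 3 untreated rats, replicates 1, 2 and 3, had anaesthesia alone. All were F344 males of 18 months, used as a model of age-related cognitive decline. RNA came from a coronal section 1 mm thick at the dorsal end of the prefrontal cortex, with 1 library from each rat. The study asked whether manipulation goes with altered gene expression, cholinergic genes above all.

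Perineuronal nets are lattices of matrix that wrap the cell body and proximal dendrites of certain neurons, most of all the parvalbumin interneurons of cortex. Their backbone is hyaluronan, to which proteoglycans of the lectican family (aggrecan, brevican, neurocan, versican) bind, held by link proteins of the Hapln family and cross-linked by tenascin-R. A related matrix with Hapln2, versican, brevican and tenascin-R surrounds nodes of Ranvier, the gaps in the myelin sheath where the action potential is renewed.

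The libraries differed in ways that bear on every value here. The FPKM values (fragments per kilobase of transcript, scaled to the mapped fragments of the library) had a median over 10643 tested genes of 2.75 to 4.07 in COM and 3.98 to 5.49 in untreated libraries, and the median log2 fold change of all tested genes was -0.36. With median-ratio scaling between libraries, which sets a common level for most genes, that median was 0.01. Depth, read from the width of the FPKM intervals, was about 3.45e+07 to 4.39e+07 fragments in COM and 3.58e+07 to 3.97e+07 in untreated libraries. Loci assembled without a gene name numbered 17102 to 36546 in COM and 51528 to 83180 in untreated tables. Markers of cortical excitatory neurons were present, 6 of 9 tested ones with a log2 fold change below 0 (median -0.23, 0.07 after scaling) and none past the adjusted threshold. The smallest p of these was that of Neurod6, at 3.46 ± 1.47 FPKM in COM and 8.44 ± 2.74 FPKM in untreated rats (SD, n = 3 each, limma adjusted p 0.271), followed by Tbr1, at 9.78 ± 5.14 FPKM in COM and 5.59 ± 0.912 FPKM in untreated rats. The 11 markers of thalamic and hypothalamic neurons summed to 21.5 to 84.5 FPKM in COM and 158 to 228 FPKM in untreated libraries, with 7 of 11 lower by limma, and the 9 striatal markers with a row of their own to 77.4 to 199 FPKM in COM and 45.2 to 69.3 FPKM in untreated libraries. The 7 choroid plexus markers with a row of their own all had a log2 fold change above 0 (median 0.71, 1.08 after scaling). As deposited the groups overlapped in every one of them, and none passed the adjusted threshold. They summed to 240.4 to 1244 FPKM in COM and 460.5 to 469 FPKM in untreated libraries. Pmch, a hypothalamic marker, had 0.125, 0.0815 and 0 FPKM in COM replicates 4, 5 and 6. In untreated replicates 1, 2 and 3 Pmch had 20.1, 19.2 and 30.5 FPKM (limma adjusted p 3.67e-05, and 0.00102 after scaling). Emx1, a cortical marker, was not above 0 in every library. Kcnj13, of the choroid plexus list, was at 0 in COM replicate 4 and in all untreated libraries. Whether these differences in tissue markers had a part in any result below was not tested, and in bulk tissue fewer cells of a type and less RNA in each cell cannot be told apart.

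None of the 9 genes passed the limma test between COM and untreated rats. Of the 6 genes tested (those with a row of their own and a mean of at least 1 FPKM), 0 had an adjusted p under 0.05 and 1, Hapln2, had an unadjusted p under 0.05, where 0.357% of all tested genes passed after adjustment, 0.0846% higher and 0.272% lower in COM. At an unadjusted p under 0.05, 13.6% of tested genes were lower and 1.47% higher in COM. Acan and Tnc lay below that mean, and Tnr shared its row with the gene AABR07021536.1 in every library, so these 3 genes were read from a fit of all rows without the filter, in which 0.123% of genes passed. The median log2 fold change of the 6 tested genes was -0.10, against -0.36 for all tested genes. After scaling these became 0.32 for the 6 genes and 0.01 for all tested genes. A log2 fold change below 0 was found in 4 of the 6 genes and in 87% of all tested genes, and of these 4 Bcan, Ncan and Hapln4 lay above 0 after scaling. Of the 6 tested genes 5 lay above the median of all tested genes, and Hapln2 lay below it.

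Per kilobase of transcript, brevican mRNA was the highest of the 9. Over all 6 libraries the mean was 28.9 FPKM for Bcan, 16.3 for Hapln2, 10.04 for Hapln4, 7.96 for Ncan, 5.45 for the row of Tnr, 1.97 for Hapln1, 1.23 for Vcan, 0.848 for Tnc and 0.369 for Acan. Bcan was above Hapln2 and Hapln2 above Hapln4 in 6 of 6 libraries, while Hapln4 was above Ncan, Ncan above Tnr and Vcan above Tnc in 5 of 6 and Tnc above Acan in 4 of 6. The only neighbours in this order whose ranges stayed apart over all libraries were Tnr, with a lowest value of 3.70 FPKM, and Hapln1, with a highest value of 2.53 FPKM.

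**Figure D1:**
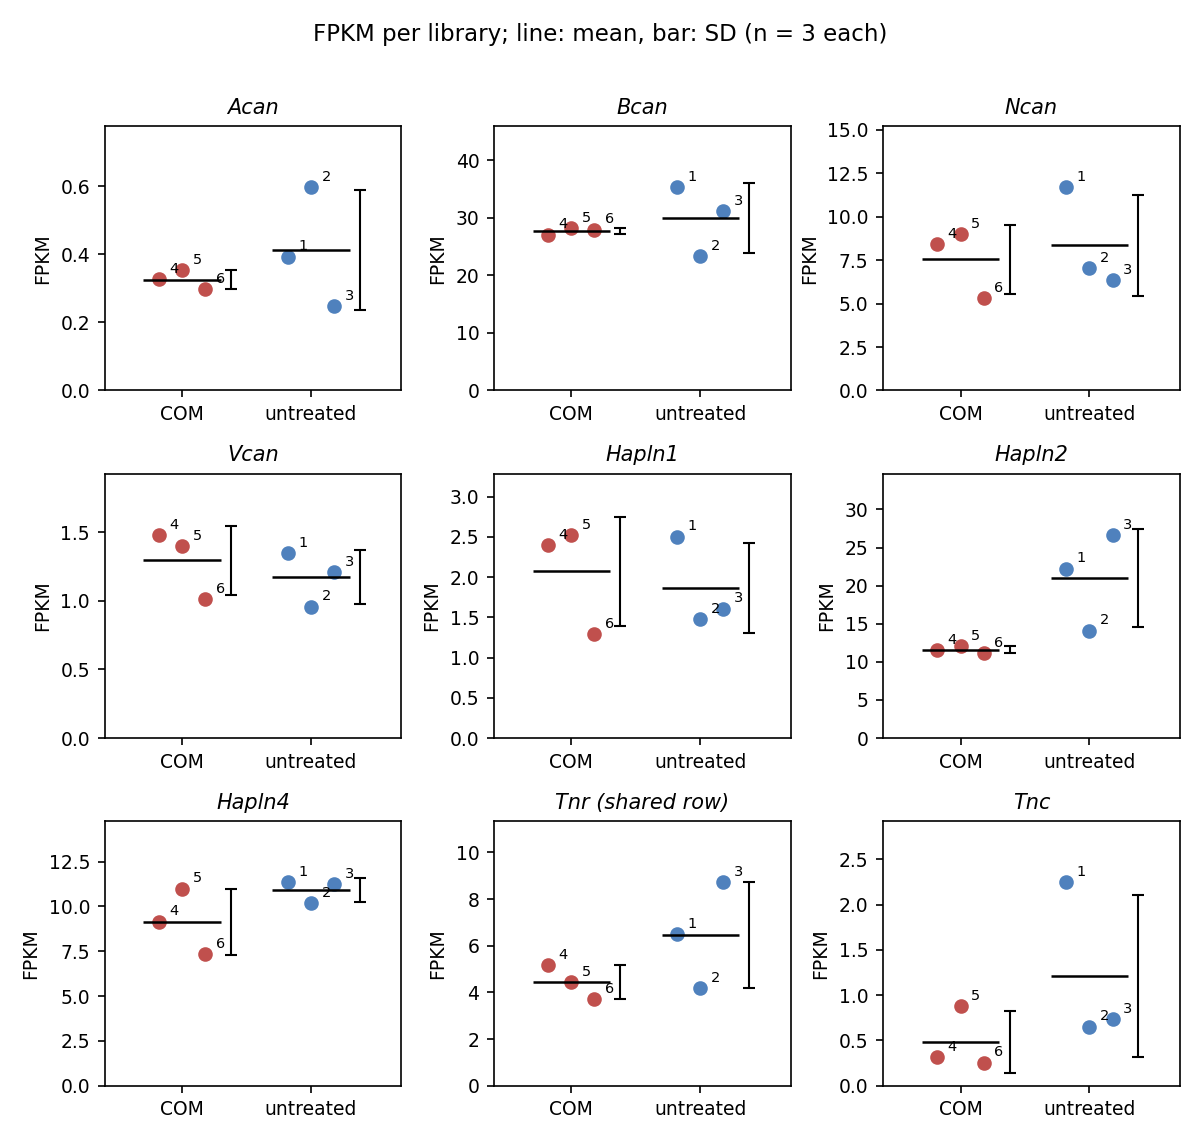
FPKM (y axis, each panel from 0 with its own scale) of each of the 9 genes in the 3 COM (red) and 3 untreated (blue) libraries; numbers are replicates, lines are group means and bars 1 SD. In Hapln2 the COM libraries sit between 11.1 and 12.0 FPKM, all below the untreated ones, while the other 8 genes have overlapping groups.

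Among link proteins, Hapln2 was lower in every COM library than in any untreated one. Hapln2, also called Bral1, is made by oligodendrocytes and found at nodes of Ranvier. It had 11.6, 12.0 and 11.1 FPKM in COM replicates 4, 5 and 6, against 22.2, 14.1 and 26.7 FPKM in untreated replicates 1, 2 and 3. The COM values lay close together, with an SD of 4.06% of the mean, and the untreated values were spread, with an SD of 30.4% of the mean. The COM mean was 0.552 of the untreated mean, and the log2 fold change was -0.76 (SE 0.29, 95% interval -1.42 to -0.10), an unadjusted limma p of 0.0279 and an adjusted p of 0.326. The exact two-sided permutation test of the 6 values gave p = 0.1, the smallest that 3 against 3 allows. The deposited FPKM intervals of single libraries, which cover counting and assignment error, also stayed apart, reaching up to 13.0 FPKM in COM and down to 13.1 FPKM in untreated libraries. Hapln2 was the only one of the 9 genes with groups apart, where 23.7% of all tested genes were apart in this direction and 1.08% in the other, and 8.22% of tested genes had a log2 fold change at or below that of Hapln2. After median-ratio scaling Hapln2 had 12.3, 12.2 and 17.0 in COM and 16.6, 14.7 and 21.4 in untreated libraries, so that the groups overlapped, and the log2 fold change was -0.32 (95% interval -0.79 to 0.15, adjusted p 0.557). With weights for each library Hapln2 passed limma at a log2 fold change of -0.95 and an adjusted p of 0.0357, in a fit that called 8.83% of all tested genes.

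Hapln1 and Hapln4, the other link proteins, had overlapping groups. Hapln1 (Crtl1) is made by neurons and is needed for normal nets in the mouse. It had 2.40, 2.53 and 1.29 FPKM in COM and 2.50, 1.48 and 1.61 FPKM in untreated libraries, with a log2 fold change of 0.09 (SE 0.26, 95% interval -0.50 to 0.68, adjusted p 0.808). The lowest and the highest library were both COM ones, replicates 6 and 5. Hapln4 (Bral2), best known from nets of the cerebellum and brainstem, had 9.15, 10.99 and 7.32 FPKM in COM and 11.3, 10.2 and 11.2 FPKM in untreated libraries, and its log2 fold change was -0.25 (SE 0.24, 95% interval -0.80 to 0.30, adjusted p 0.505). COM replicates 4 and 6 lay below all untreated libraries and replicate 5 among them. The deposited intervals of Hapln4 were 5.64 to 9.19% of the value on each side, narrower than the SD of 20.0% between COM libraries.

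The stretch just before the start of each link protein gene and of Bcan, the lectican next to Hapln2, is shown. As deposited Hapln2 alone of these genes had groups that did not overlap, and after scaling its groups overlapped. Each is the 250 bases before the RefSeq start, from RefSeq on the build GRCr8, read 5′ to 3′ on the strand of the gene, at chr2:175794439-175794688 on the minus strand for Hapln2, chr2:175765315-175765564 minus for Bcan, chr16:19375174-19375423 minus for Hapln4 and chr2:22366717-22366966 plus for Hapln1. Capitals mark ACAAAG and ACAATG, the letters bound by SOX factors such as SOX10 of oligodendrocytes, and GGGCGG, the GC box, on either strand.
Hapln2: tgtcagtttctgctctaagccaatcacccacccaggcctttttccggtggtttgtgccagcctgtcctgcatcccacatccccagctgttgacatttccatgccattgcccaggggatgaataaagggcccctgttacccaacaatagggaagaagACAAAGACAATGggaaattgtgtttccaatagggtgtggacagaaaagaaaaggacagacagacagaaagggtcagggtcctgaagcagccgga
Bcan: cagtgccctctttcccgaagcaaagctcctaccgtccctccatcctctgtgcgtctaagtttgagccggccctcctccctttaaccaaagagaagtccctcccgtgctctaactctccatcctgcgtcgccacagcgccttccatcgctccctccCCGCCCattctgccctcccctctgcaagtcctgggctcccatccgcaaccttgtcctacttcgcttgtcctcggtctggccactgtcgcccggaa
Hapln4: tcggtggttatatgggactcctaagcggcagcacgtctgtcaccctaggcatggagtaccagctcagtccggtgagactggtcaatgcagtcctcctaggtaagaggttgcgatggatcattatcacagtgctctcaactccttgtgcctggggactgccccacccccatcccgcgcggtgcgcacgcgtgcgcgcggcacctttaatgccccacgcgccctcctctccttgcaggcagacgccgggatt
Hapln1: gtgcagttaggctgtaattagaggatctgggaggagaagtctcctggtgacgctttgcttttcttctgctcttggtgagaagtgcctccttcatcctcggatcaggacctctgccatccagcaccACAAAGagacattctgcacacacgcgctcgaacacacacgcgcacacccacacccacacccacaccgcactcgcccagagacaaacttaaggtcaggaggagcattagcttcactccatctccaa

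In this window Hapln2 held ACAAAG with its first base at -94 and ACAATG at -88, directly after each other. Hapln1 held ACAAAG at -125, and Bcan held 1 GC box on the opposite strand. Of 33469 promoters in the table, 16.3% held ACAAAG, 11.1% ACAATG, 2.09% both and 30.5% the GC box on either strand. All 9 genes matched a promoter there, Vcan with 2 starts, and Hapln2 alone of the 9 held both SOX-type motifs. The window of Hapln2 held 2 CpG dinucleotides and that of Tnr 0, against 7 to 24 in the other genes and a median of 5 over all promoters. These matches describe letters and not bound sites. Sox10 had 7.67 ± 1.73 FPKM in COM and 8.96 ± 1.54 FPKM in untreated rats (SD, n = 3, limma adjusted p 0.582), with overlapping groups. Whether the letters bear on the level of any gene was not tested.

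None of the lecticans passed the test, and as deposited the highest value of brevican over the 6 libraries was 1.51 times its lowest. Bcan, a brain-specific proteoglycan made mostly by glia, had 27.1, 28.2 and 28.0 FPKM in COM and 35.3, 23.4 and 31.1 FPKM in untreated libraries. All COM values fell inside the untreated range, with an SD of 2.05% of the mean in COM and 20.2% in untreated rats, and the log2 fold change was -0.09 (SE 0.28, 95% interval -0.71 to 0.54, adjusted p 0.831). Ncan, neurocan, made by neurons and astrocytes, had 8.41, 8.98 and 5.29 FPKM in COM and 11.7, 7.05 and 6.33 FPKM in untreated libraries, a log2 fold change of -0.11 (95% interval -0.79 to 0.56, adjusted p 0.795). Here untreated replicate 1 was highest and COM replicate 6 lowest. Vcan, versican, which oligodendrocyte precursors express, had 1.48, 1.40 and 1.01 FPKM in COM and 1.35, 0.958 and 1.21 FPKM in untreated libraries, a log2 fold change of 0.08 (95% interval -0.48 to 0.63, adjusted p 0.828).

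Acan encodes aggrecan, the lectican that defines most cortical nets, and was the lowest of the 9 genes. It had 0.327, 0.353 and 0.297 FPKM in COM and 0.393, 0.597 and 0.249 FPKM in untreated libraries. The untreated libraries enclosed all COM values, with a log2 fold change of -0.08 (SE 0.10, 95% interval -0.33 to 0.16, adjusted p 0.618), on a scale that understates changes at levels so far below 1 FPKM. The deposited intervals were 15.7 to 34.5% of the value on each side, so that precision at this level is limited. Hapln3, the link protein gene next to Acan, was as low, at 0.188 to 0.266 FPKM in COM and 0.181 to 0.369 FPKM in untreated libraries, and was not tested.

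After median-ratio scaling Bcan, Vcan and Hapln1 lay higher in every COM library than in any untreated one, and none passed limma. The scaled log2 fold changes were 0.37 for Bcan (95% interval -0.07 to 0.81), 0.33 for Vcan (0.04 to 0.63) and 0.39 for Hapln1 (0.05 to 0.73), with adjusted p of 0.497, 0.391 and 0.381, and unadjusted p of 0.0884, 0.0326 and 0.0303. In these 3 genes the scaled groups did not overlap, as in 10.6% of all tested genes in that direction and 9.09% in the other. The scaled groups of the other lecticans overlapped, with log2 fold changes of 0.30 for Ncan (95% interval -0.16 to 0.75) and 0.03 for Acan (-0.28 to 0.34), and so did those of Hapln4 and Hapln2. Scaled Bcan was 28.7, 28.6 and 42.8 in COM and 26.3, 24.4 and 24.9 in untreated libraries. The highest of these, COM replicate 6, had the smallest scaling factor, 0.653, against 0.945 and 0.986 in the other COM libraries.

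**Figure D2:**
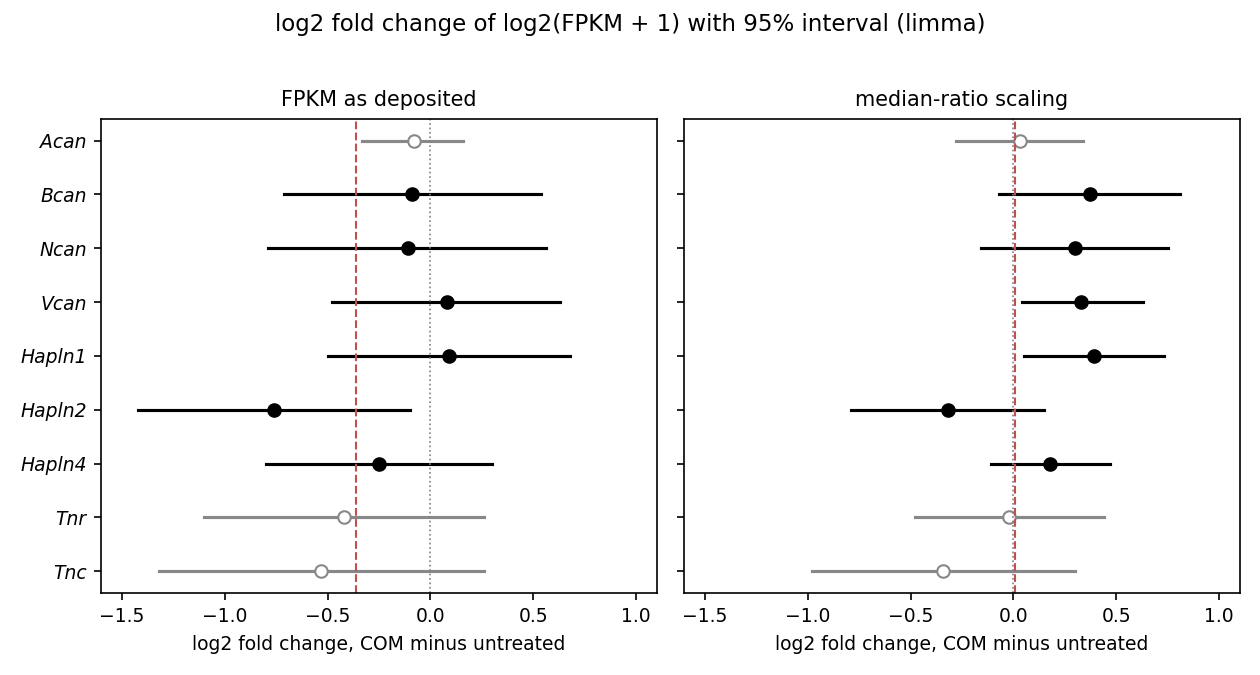
Log2 fold change (x axis, COM minus untreated, log2(FPKM + 1) scale) with its 95% interval from limma for FPKM as deposited (left) and after median-ratio scaling (right). Grey open points are the genes read from the fit without the filter on low values, and the red dashed line is the median of all tested genes, -0.36 at left and 0.01 at right; Hapln2 is the only black point left of that line in both panels.

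The tenascins, Tnr and Tnc, had lower means in COM rats with overlapping groups. Tenascin-R, made by oligodendrocytes and some neurons, cross-links lecticans in nets and at nodes. The row of Tnr and AABR07021536.1 had 5.15, 4.44 and 3.70 FPKM in COM and 6.49, 4.18 and 8.72 FPKM in untreated libraries, a log2 fold change of -0.42 (SE 0.28, 95% interval -1.10 to 0.26, adjusted p 0.450), and -0.02 after median-ratio scaling. Untreated replicate 2 lay between COM replicates 5 and 6. The span of this row also held 20, 0 and 1 assembled loci without a name in COM and 88, 10 and 77 in untreated libraries, whose part in the value of Tnr was not tested. Tenascin-C, a protein of development and of reactive astrocytes, was low and uneven. Tnc had 0.313, 0.881 and 0.255 FPKM in COM and 2.25, 0.652 and 0.739 FPKM in untreated libraries, a log2 fold change of -0.53 (SE 0.32, 95% interval -1.32 to 0.26, adjusted p 0.431), and -0.34 after scaling. Its highest value came from untreated replicate 1, and in COM replicate 5 the deposited interval ran from 0 to 14.2 FPKM, so that this value carries little information.

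The lectican and link genes lie in neighbouring pairs, with no other named gene between the partners in any library. On Rnor_6.0, Bcan (chromosome 2, 187359500 to 187373472) and Hapln2 (187393692 to 187401947) were 20.2 kb apart, Hapln1 (chromosome 2, 18354542 to 18419078) and Vcan (18490083 to 18565842) 71.0 kb, Ncan (chromosome 16, 21050199 to 21078677) and Hapln4 (21081375 to 21089508) 2.7 kb, and Acan (chromosome 1, 140762327 to 140824695) and Hapln3 2.1 kb. Tnr lies alone on chromosome 13 (77264239 to 77683579) and Tnc on chromosome 5 (79789671 to 79874784). Unnamed assembled loci also overlapped the place of Hapln2 in some libraries of both groups, with a summed level of 10.5 FPKM in COM replicate 4, 8.17 FPKM in untreated replicate 2 and 4.56 FPKM in untreated replicate 3. That of Bcan was overlapped at 7.16 FPKM in COM replicate 6 and 50.6 FPKM in untreated replicate 1. Their part in the values of these genes was not tested.

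Of the 3 pairs with both partners among the 9 genes, Bcan and Hapln2 alone had a ratio whose groups stayed apart. The ratio of Hapln2 to Bcan within a library, which scaling between libraries does not change, was 0.428, 0.427 and 0.397 in COM and 0.629, 0.602 and 0.857 in untreated libraries. The groups were apart, with a log2 difference of -0.72 and an exact permutation p of 0.1, the smallest possible, while relative to Bcan 29.3% of the other tested genes were apart in that direction and 1.27% in the other. The ratio of Hapln4 to Ncan was 1.09, 1.22 and 1.38 in COM and 0.97, 1.44 and 1.77 in untreated libraries, and that of Hapln1 to Vcan 1.62, 1.81 and 1.28 in COM and 1.86, 1.54 and 1.33 in untreated libraries. In both of these pairs the groups overlapped, and Vcan over Hapln1 differed by 0.01 on the log2 scale. Of all 36 pairs among the 9 genes, 7 had ratios that did not overlap between groups, each with an exact permutation p of 0.1. That is near the 20.5% of all pairs of tested genes whose ratio was apart. Hapln2 was in 4 of the 7, lower in COM relative to Bcan, Vcan, Hapln1 and Tnr, and Vcan was in 3, higher relative to Hapln2, Hapln4 and Tnr. The remaining pair was Hapln1 and Tnc, with Hapln1 relatively higher in COM. As a share of the summed FPKM of the 9 genes, Hapln2 made up 17.6, 17.3 and 19.1% in COM and 23.8, 22.5 and 30.4% in untreated libraries.

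**Figure D3:**
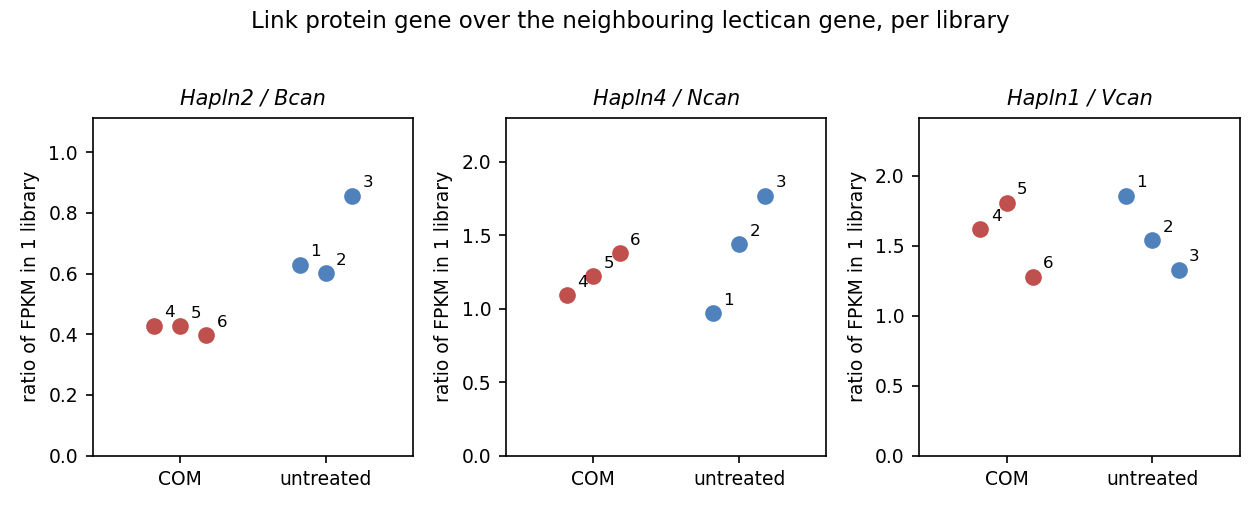
Ratio of FPKM within a library (y axis, from 0) of each link protein gene to the lectican gene beside it, for the 3 COM (red) and 3 untreated (blue) libraries, with replicate numbers. Hapln2 over Bcan is 0.397 to 0.428 in COM and 0.602 to 0.857 in untreated libraries, and the other 2 ratios overlap.

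Each gene was set against a single list of markers of cells known to make it, and 6 of the 9 genes had overlapping groups and 3 did not. Other pairings were not tested, although Ncan, for example, is also made by neurons, so this count holds for these lists only. Hapln2, relative to the mean log2 level of 9 mature oligodendrocyte markers, was at -1.73, -1.82 and -1.16 in COM and -1.38, -1.43 and -0.81 in untreated libraries, and the groups overlapped, while 5.08% of tested genes were apart and lower on this scale. All 9 of these myelin markers had a log2 fold change below 0, as did 87% of all tested genes (median -0.36, 0.10 after scaling), and summed to 739 to 1179 FPKM in COM and 1076 to 1472 FPKM in untreated libraries, none of them at 0. Aspa, which encodes the aspartoacylase of oligodendrocytes, had 3.16, 2.85 and 1.59 FPKM in COM and 7.30, 3.49 and 6.47 FPKM in untreated libraries (adjusted p 0.310), and Mbp, myelin basic protein, had 639 ± 129 FPKM in COM and 818 ± 107 FPKM in untreated rats (SD, n = 3, adjusted p 0.408). Hapln4 relative to 10 markers of parvalbumin and other GABAergic interneurons was at -0.01, 0.07 and 0.11 in COM and 0.27, 0.39 and 0.35 in untreated libraries, apart in the lower direction, as were 53.5% of tested genes on this scale. The interneuron markers themselves had a median log2 fold change of 0.18 (0.55 after scaling), with 4 of 10 below 0. As deposited 3 of 10 were apart and higher and 1 lower, against 1.08% and 23.7% of all tested genes. After scaling 6 of 10 were apart and higher and 1 lower, against 10.6% and 9.09%. Pvalb itself had 38.2 ± 12.8 FPKM in COM and 53.5 ± 23.8 FPKM in untreated rats (SD, n = 3, limma adjusted p 0.456), with overlapping groups. Gad1, Gad2 and Slc32a1, among the 10, are also expressed by striatal neurons. Bcan relative to 7 astrocyte markers was at 0.32, 0.25 and 1.03 in COM and 0.17, 0.12 and 0.17 in untreated libraries, and Ncan at -1.26, -1.29 and -1.17 in COM and -1.35, -1.48 and -1.96 in untreated libraries, both apart in the higher direction, as were 13.6% of tested genes on this scale. The difference of 0.38 for Bcan was 0.13 without COM replicate 6, and that of 0.35 for Ncan was 0.17 without untreated replicate 3. The median log2 fold change over these astrocyte markers was -0.60 (-0.13 after scaling), with 5 of 7 below 0 and 2 above. As deposited 4 of the 7 were apart and lower and 0 higher, against 23.7% and 1.08% of all tested genes. After scaling 3 of the 7 were apart and lower and 1 higher, against 9.09% and 10.6%. The smallest p were those of Aldh1l1 and Gjb6, both lower in COM. Aldh1l1 was at 1.44 ± 0.443 FPKM in COM and 3.46 ± 1.26 FPKM in untreated rats (limma adjusted p 0.310). Gjb6, connexin 30, was at 4.21 ± 0.985 FPKM in COM and 8.68 ± 2.95 FPKM in untreated rats (limma adjusted p 0.310). The astrocyte markers summed to 200.1 to 388 FPKM in COM and 345 to 477.5 FPKM in untreated libraries. The ratios of Acan and Hapln1 to the interneuron markers, of Vcan to 6 precursor markers, of Tnr to the myelin markers and of Tnc to the astrocyte markers overlapped between groups. Interneuron markers summed to 99.15 to 159 FPKM in COM and 117 to 165 FPKM in untreated libraries, with Kcnc2, a fast potassium channel, at 8.41 ± 2.53 FPKM in COM and 18.6 ± 4.16 FPKM in untreated rats (adjusted p 0.271) and Lhx6 at 2.95 ± 0.911 FPKM in COM and 1.44 ± 0.551 FPKM in untreated rats (adjusted p 0.326). Precursor markers summed to 40.0 to 101 FPKM in COM and 71.2 to 97.2 FPKM in untreated libraries, with Olig2 at 0 in untreated replicate 1.

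No tested gene of 5 related lists passed limma either. Among other net components, 0 of 8 tested genes passed, where 0.357% of all tested genes did. As deposited 1 of the 8 was apart and lower and 0 higher, against 23.7% and 1.08% of all tested genes. After scaling 1 was apart and lower and 1 higher, against 9.09% and 10.6%. The lower one was Nptx2 in both cases, a neuronal pentraxin secreted at synapses on parvalbumin cells. Nptx2 had 4.404, 4.69 and 3.13 FPKM in COM and 8.46, 5.12 and 6.85 FPKM in untreated libraries (log2 fold change -0.61, limma adjusted p 0.326). Ptn, pleiotrophin, had 31.6 ± 9.94 FPKM in COM and 51.6 ± 16.4 FPKM in untreated rats (SD, n = 3), and the hyaluronan synthase genes Has1, Has2 and Has3 were too low to test. Of 11 tested genes of chondroitin sulfate synthesis, which build the sugar chains of lecticans, 10 had a log2 fold change below 0, with a median of -0.20, and 3 were apart, all lower, where 87% of all tested genes were below 0 and 23.7% were apart and lower. B4galt7 had 3.02, 3.06 and 1.85 FPKM in COM and 3.68, 3.54 and 4.89 FPKM in untreated libraries (adjusted p 0.328). Csgalnact2, which starts the chain, had 0.849 ± 0.378 FPKM in COM and 1.65 ± 0.625 FPKM in untreated rats (SD, n = 3, adjusted p 0.338). After scaling the median of this list was 0.08 and the groups of B4galt7 and Csgalnact2 overlapped. Of its 11 tested genes 2 were then apart and higher and 0 lower, against 10.6% and 9.09% of all tested genes.

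Of 7 tested receptors of the matrix, all had a log2 fold change below 0, with a median of -0.27 that was 0.05 after scaling, and 3 were apart and lower, against 87% below 0 and 23.7% apart and lower over all tested genes. The Nogo receptor family genes Rtn4r and Rtn4rl1, whose products bind chondroitin sulfate proteoglycans, had the smallest p. Rtn4rl1 had 6.17, 6.92 and 4.78 FPKM in COM and 11.9, 8.11 and 9.22 FPKM in untreated libraries, and Rtn4r 9.02, 9.45 and 7.56 FPKM in COM and 15.8, 10.3 and 16.9 FPKM in untreated libraries, with adjusted p of 0.326 for each. Cd44, the hyaluronan receptor, was the third, with a log2 fold change of -0.26 (adjusted p 0.476). Rtn4r and Rtn4rl1 had groups apart as deposited, and after scaling those of Rtn4rl1 still were and those of Rtn4r were not. The 11 tested proteases and inhibitors had a median of -0.25 (0.09 after scaling). As deposited none of them was apart, against 23.7% apart and lower and 1.08% apart and higher over all tested genes. After scaling 3 of the 11 were apart and higher and 0 lower, against 10.6% and 9.09% of all tested genes. The list held Timp3, at 6.76 ± 1.02 FPKM in COM and 9.56 ± 3.39 FPKM in untreated rats. It also held Timp4, listed at 0 in all libraries but untreated replicate 1, where it had 6.64 FPKM. The 10 tested genes of the node of Ranvier had a median of -0.23 (0.21 after scaling). As deposited none of these 10 was apart, and after scaling 2 were apart and higher and 0 lower. Their smallest p was that of Ank3, the ankyrin-G that anchors nodal sodium channels. Ank3 had 18.5, 17.6 and 11.96 FPKM in COM and 35.03, 16.75 and 22.2 FPKM in untreated libraries (limma adjusted p 0.352). Scn2a followed, at 11.5 ± 2.98 FPKM in COM and 14.7 ± 4.33 FPKM in untreated rats (limma adjusted p 0.501).

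**Figure D4:**
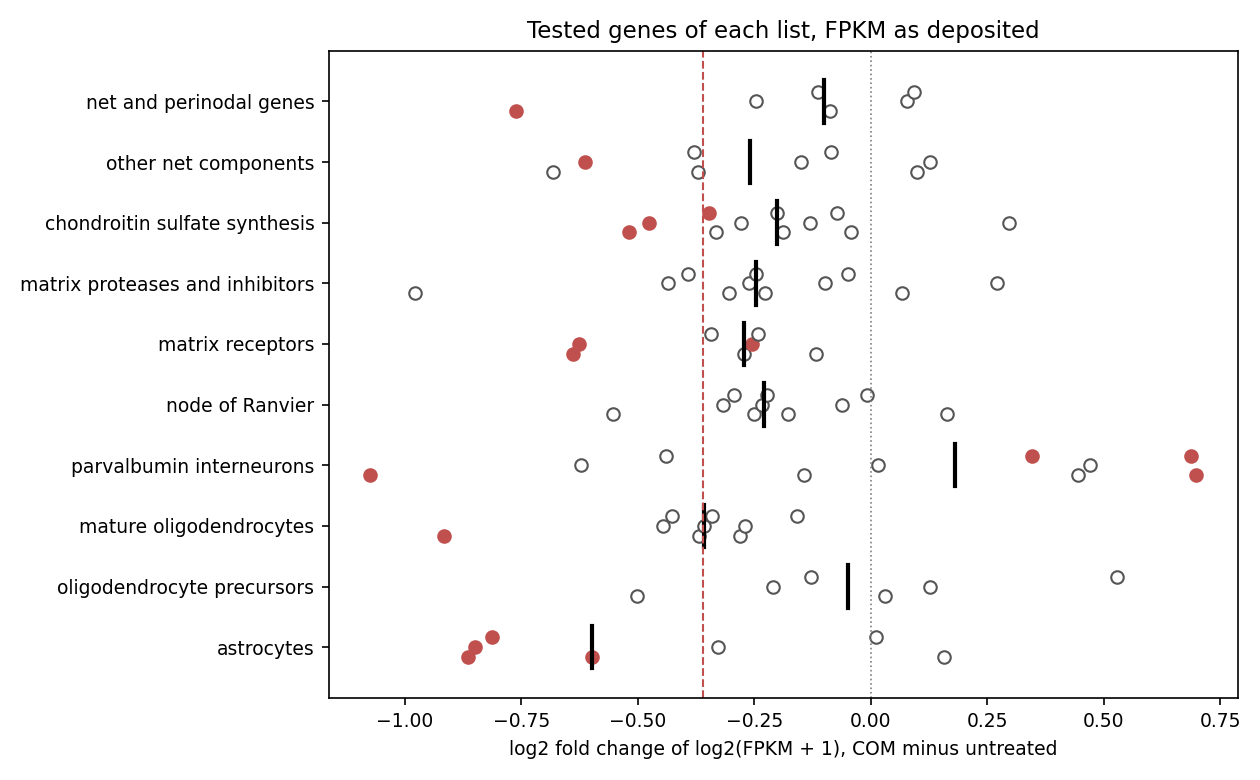
Log2 fold change (x axis, COM minus untreated, FPKM as deposited) of each tested gene of the net and perinodal genes, of 5 related lists and of 4 cell type lists; filled red points are genes whose groups do not overlap, black bars are list medians, and the red dashed line is the median of all tested genes, -0.36. Hapln2 at -0.76 is the only filled point among the net and perinodal genes.

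Correlations of the link genes with the lecticans across the 6 libraries are given as a description of points that share library depth and scaling. Whether these correlations differ from each other was not tested. Pearson's r of log2 values was 0.92 between Hapln1 and Vcan, 0.90 between Hapln1 and Ncan, 0.42 between Hapln1 and Bcan and 0.69 between Ncan and Vcan. Hapln2 had 0.02 with Hapln1, 0.06 with Vcan, 0.22 with Ncan, 0.66 with its neighbour Bcan and 0.67 with Hapln4. Hapln4 had 0.63 with its neighbour Ncan, 0.4 with Vcan and 0.38 with Bcan. Among all other tested genes with a gene name, the nearest to Hapln2 were Mau2 (r = 0.9975) and Crtc2 (0.9952), and 266 genes had r above 0.95 with it. The nearest to Hapln4 were Yy1 (0.9983) and Hdgfl2 (0.9970), to Hapln1 Ano3 (0.9928) and Lsr (0.9908), to Vcan Tmtc1 (0.9943) and Alpl (0.9888), to Ncan Islr2 (0.9893) and Neo1 (0.9878), and to Bcan Clstn2 (0.9753) and Chsy1 (0.9686). Such values are common over 6 libraries, as the count of 392 genes above 0.95 for Hapln4 shows.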

How the data were processed

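RNA-seq of 6 rats, 3 COM and 3 untreated, was analysed, grouped by the treatment in the sample titles. The deposited values are FPKM per gene and library with interval bounds, made by the authors with STAR 2.7.3a and Cufflinks on Rnor_6.0, per the submitters' processing notes; the sources used here do not give the annotation release, strand setting or read totals. Because FPKM is relative to the whole library, a rise in abundant transcripts lowers the rest, and without strand, overlapping opposite transcripts cannot be told apart.

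Rows of a symbol at 1 place were summed. Symbols sharing a row (3254), at several places (162), missing from a library (32) or with a failed estimate (5) were left out. Of 26623 symbols kept, 10643 with a mean of at least 1 FPKM entered limma 3.58.1 (trend, R 4.3.3) on the scale log2(FPKM + 1), two-sided, Benjamini-Hochberg adjusted over all tested genes, threshold 0.05. The fit was run on simulated data with independent noise for each gene and no shift shared within a library. That check says nothing about differences in scale between libraries such as those seen here. Log2 fold changes understate changes of low genes. Starts were found to count from 0 (274 of 282 miRNA rows match their hairpin length so) and are given from 1. Depth was estimated from interval widths of unnamed loci, taken as 2 Poisson SDs each side, and is not a read total. Single values were compared by exact permutation in scipy 1.17.1; figures used matplotlib 3.10.9.

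The 9 genes and all lists were chosen with earlier results of these data known. Genes named are the 9, the 2 most alike to each tested one and, with exceptions, the 2 with the smallest p of each list. Of those 2, only Pmch was named for the thalamic and hypothalamic list, only Sox10 for the precursors and only Kcnj13 for the choroid plexus. No gene of the striatal list was named by this rule. Hapln3, the Has genes, Cd44, Olig2, Gad1, Gad2, Slc32a1, Pvalb and Emx1 were named after their values were seen. Cspg4 and Otx2 each stand on 2 lists. Alternatives were another pseudocount, other filters, median-ratio scaling, no trend, library weights, shared rows kept and leaving out each library.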

Additional observations from a re-analysis of the deposited data

How the results depend on the processing

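The number of genes passing limma over all tested genes was 38, and it was 20 with no filter on low values, 24 with rows naming several genes kept and 940 with weights per library, while without 1 library it ran from 37 to 71, the highest without untreated replicate 2. Of the 9 genes 0 passed, except that with weights per library 1 did, Hapln2, with a log2 fold change of -0.95 and an adjusted p of 0.0357, in a fit that called 8.83% of all tested genes and gave COM replicate 4 a weight of 6.12 and COM replicate 6 one of 0.234. Hapln2 was lower in every alternative run, -1.01 to -0.57 without 1 library, with adjusted p of 0.158 to 0.655. The sign turned with median-ratio scaling for Acan (0.03), Bcan (0.37), Ncan (0.30) and Hapln4 (0.18), and with weights for Ncan (0.11). Without 1 library the log2 fold change ran from -0.17 to 0.01 for Acan, -0.25 to 0.04 for Bcan, -0.27 to 0.13 for Ncan and -0.02 to 0.29 for Hapln1. Acan turned to 0.01 without untreated replicate 2, Bcan to 0.04 and Ncan to 0.13 without untreated replicate 1, Ncan to 0.09 without COM replicate 6, and Hapln1 to -0.0026 without untreated replicate 2 and -0.02 without COM replicate 5. Vcan (0.08), Hapln4 (-0.25), Tnr (-0.42) and Tnc (-0.53) kept their sign without any 1 library, but Vcan was 0.01 without untreated replicate 2, 0.02 without COM replicate 4, 0.04 without COM replicate 5 and 0.17 without COM replicate 6, Hapln4 -0.11 without COM replicate 6, Tnr -0.21 without untreated replicate 3 and -0.66 without untreated replicate 2, and Tnc -0.22 without untreated replicate 1. Tnc was -1.12 with a pseudocount of 0.1. List medians also moved with 1 library, being closest to 0 without COM replicate 6 for other net components (-0.04), chondroitin sulfate synthesis (-0.08), receptors (-0.18) and the node of Ranvier (-0.01), and without untreated replicate 1 for proteases and inhibitors (-0.09). The cause of these changes was not tested. No paired analysis was possible because the groups share no replicate number. With 3 rats in each group the 95% intervals of the values as deposited leave room for changes in either direction in every gene but Hapln2. These intervals are not adjusted for the number of genes tested, and that of Hapln2 took in 0 after median-ratio scaling (-0.79 to 0.15). After scaling the intervals of Vcan (0.04 to 0.63) and Hapln1 (0.05 to 0.73) lay above 0 instead, and neither gene passed limma.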
